A study of Mus musculus with 10 samples.

Results

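CXC chemokines in microglia were described here from 7 genes (*Cxcl1*, *Cxcl2*, *Cxcl3*, *Cxcl10*, *Cxcl14*, *Cxcl16* and *Pf4*), chosen by gene symbol and looked up in every count table, of 18292 symbols listed in all. The study profiled single microglia from 10 libraries, with 2 libraries in each of 5 groups, and asked how microglia in cultured brain slices compare with microglia taken directly from the brain and with microglia grown on plastic. Adult microglia were isolated from the brains of adult C57BL/6 mice. Slice microglia were isolated from coronal brain slices of neonatal C57BL/6 pups, cut without the cerebellum and kept on membrane inserts for 1 day, 1 week or 3 weeks, with slices pooled where the isolation needed it. *In vitro* microglia were collected from the medium of mixed glial cultures of neonatal cortex after 3 weeks. None of the groups was given an inflammatory stimulus, and every suspension was sorted by FACS for live CD11b high, CD45 intermediate cells before 10x Genomics 3' sequencing. The growth factor PDGF was added to the slice medium at each medium change and is not listed for the mixed glial medium. Age and preparation therefore differ together between adult and the cultured groups and cannot be told apart.

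CXC chemokines are small secreted proteins that guide the migration of leukocytes through G protein-coupled receptors, and they are named for the spacing of their conserved cysteines. CXCL1, CXCL2 and CXCL3 bind CXCR2 and recruit neutrophils, and their genes are textbook targets of NF-kB. CXCL10 is an interferon-induced ligand of CXCR3 that attracts activated T cells, PF4 (CXCL4) is best known as a platelet granule protein, CXCL14 is a homeostatic chemokine of epithelia and other tissues, and CXCL16 is made as a transmembrane protein that binds CXCR6 and is released by ADAM proteases.

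The genes of *Pf4*, *Cxcl3*, *Cxcl1* and *Cxcl2* lie in this order on the plus strand of chromosome 5, with 131 kb between the starts of the outermost promoter windows, and *Cxcl10* lies on the minus strand of the same chromosome. Promoter sequences from RefSeq (GRCm38.p6) were found for 6 of the 7 members, all but *Cxcl16*. The 250 bases before the start site are shown for the 3 CXCR2 ligands, since *Cxcl2* and *Cxcl3* were both highest at slice 1 day, and for *Cxcl10*, whose transcripts lay in cells rich in interferon-stimulated transcripts. Capitals mark matches to a kB-type motif (GGG, any 2 bases, then TTTCC) in *Cxcl1*, *Cxcl2* and *Cxcl3* and to an interferon response-type motif (GAAA, any 2 bases, then GAAA) in *Cxcl10*, each searched on both strands and chosen with the sequences in view. The windows are chr5:90890995-90891244 (plus strand) for *Cxcl1*, chr5:90903649-90903898 (plus) for *Cxcl2*, chr5:90785851-90786100 (plus) for *Cxcl3* and chr5:92348890-92349139 (minus) for *Cxcl10*, and each is written 5′ to 3′ along the gene.
Cxcl1: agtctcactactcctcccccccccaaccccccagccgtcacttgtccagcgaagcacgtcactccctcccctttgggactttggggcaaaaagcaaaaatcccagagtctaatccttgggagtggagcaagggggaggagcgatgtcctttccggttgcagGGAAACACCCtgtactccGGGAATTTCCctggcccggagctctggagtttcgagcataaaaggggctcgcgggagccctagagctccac
Cxcl2: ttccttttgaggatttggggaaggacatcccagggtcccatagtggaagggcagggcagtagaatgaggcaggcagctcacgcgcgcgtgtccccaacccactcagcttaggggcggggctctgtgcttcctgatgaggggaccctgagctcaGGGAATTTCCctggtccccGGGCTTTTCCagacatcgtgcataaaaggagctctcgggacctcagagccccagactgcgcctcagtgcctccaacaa
Cxcl3: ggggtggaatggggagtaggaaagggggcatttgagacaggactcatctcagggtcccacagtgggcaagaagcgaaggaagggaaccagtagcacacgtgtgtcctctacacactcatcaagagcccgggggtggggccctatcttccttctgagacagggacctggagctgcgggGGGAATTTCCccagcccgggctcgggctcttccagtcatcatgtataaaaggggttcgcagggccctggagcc
Cxcl10: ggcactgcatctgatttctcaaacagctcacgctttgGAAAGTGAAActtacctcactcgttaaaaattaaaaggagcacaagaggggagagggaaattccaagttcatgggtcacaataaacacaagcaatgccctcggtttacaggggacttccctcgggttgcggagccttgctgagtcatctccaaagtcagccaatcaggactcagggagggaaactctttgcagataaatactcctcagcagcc
The letters GGGAATTTCC started 71 bases before the start site in *Cxcl1*, 97 bases before it in *Cxcl2* and 73 bases before it in *Cxcl3*. *Cxcl2* held a second match, GGGCTTTTCC, at 78 bases, and *Cxcl1* a match on the opposite strand at 89 bases. The kB-type motif was present in 1.41% of all 32851 promoter windows of the same length and in 3 of the 6 members with a sequence. The interferon response-type motif was present in 2.98% of all windows. Among the members it was found in *Cxcl10*, 213 bases before the start site, and in *Cxcl14*, at 172 bases. These are matches of letters and were not tested as binding sites. Wider forms of either motif were not searched, so lower-case letters do not show that a window lacks such sites.

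The tables held raw UMI (unique molecular identifier) counts for 19637 barcodes, and 19059 cells remained after filtering, with 61 to 148 cells in the slice 1 week libraries and 518 to 3799 in the others. The study also set outlier cells apart by t-SNE, a map of cells by their expression, and reports lower ranges of cell counts. That step was not repeated, so the levels and shares below include cells that the study left out. Which cells these were is not known here. Summed over cells, the libraries held 385373 to 39689540 UMIs, and the median cell held 1858 UMIs (adult replicate 2) to 13966 UMIs (*in vitro* replicate 2). All 8 microglia markers checked were detected in every library, at a summed level of 59441 to 59963 CPM, the UMIs of a gene scaled to the total of the library in adult and 10421 to 38462 in the cultured groups. At most 21 barcodes were shared by any pair of libraries. Slice 1 day and slice 1 week stood apart in neutrophil markers (10 genes), which summed to 7797 and 22469 CPM at 1 day and to 40272 and 1033 CPM at 1 week, against 21.4 to 211 CPM elsewhere. Cells that took at least 2% of their UMIs from these markers made up 68 of 518 and 110 of 1014 cells at slice 1 day, 24 of 148 and 1 of 61 at slice 1 week, and 0 in the other 6 libraries. Calls of *Cxcl2* and *Cxcl3* at slice 1 day and counts of receptor genes, and at slice 1 day of NF-kB response and immediate early genes, against adult are also given without these cells.

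Levels of genes and sums of lists over a whole library are given below as TMM-scaled CPM, levels within a subset of its cells are unscaled CPM, and a member was called as up- or down-regulated at an edgeR FDR below 0.05 with a fold change over 1.5. *Cxcl1* had too few counts for the fit, so 6 of the 7 members were tested. *Cxcl3* had UMIs only at slice 1 day and entered the fit through that group alone, so the counts that follow describe these members and are no evidence about the family. Against adult, 5 members were higher and 0 lower at slice 1 day (24.9% and 25.3% of all 12157 genes tested were called in these directions, 50.2% in either), 4 and 0 at slice 1 week (15.0% and 13.6%, 28.6% in either), 4 and 0 at slice 3 weeks (17.9% and 17.5%, 35.4% in either), and 4 and 1 *in vitro* (22.4% and 28.5%, 50.8% in either). With members absent from adult set to a lower bound, the median log2 fold change of the members against adult was 6.27, 5.34, 3.14 and 5.86 in these 4 comparisons (6, 5, 5 and 5 members used), beside −0.06, −0.08, −0.03 and −0.11 over all genes. At slice 3 weeks and *in vitro* the median was the lower bound of *Cxcl2* itself. At slice 1 day it lay between *Pf4* and the lower bound of *Cxcl3*. These medians therefore depend on the depth of the adult libraries and are a description. Against slice 1 day, 0 members were higher and 2 lower at slice 1 week (4.91% and 5.25% of all genes, 10.2% in either), 0 and 3 at slice 3 weeks (13.9% and 12.8%, 26.7% in either), and 1 and 3 *in vitro* (13.3% and 18.6%, 31.9% in either). *In vitro* against slice 3 weeks, 2 were higher and 1 lower (13.3% and 19.9%, 33.2% in either), and against slice 1 week 1 was higher and 0 lower (6.20% and 10.0%, 16.2% in either). Between slice 3 weeks and slice 1 week edgeR called 0 of the 6 (2.23% of all genes were higher and 3.49% lower, 5.72% in either), although 2 of the 6 had an unadjusted p below 0.05 and DESeq2 called 1 (*Cxcl2*).

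**Figure D1:**
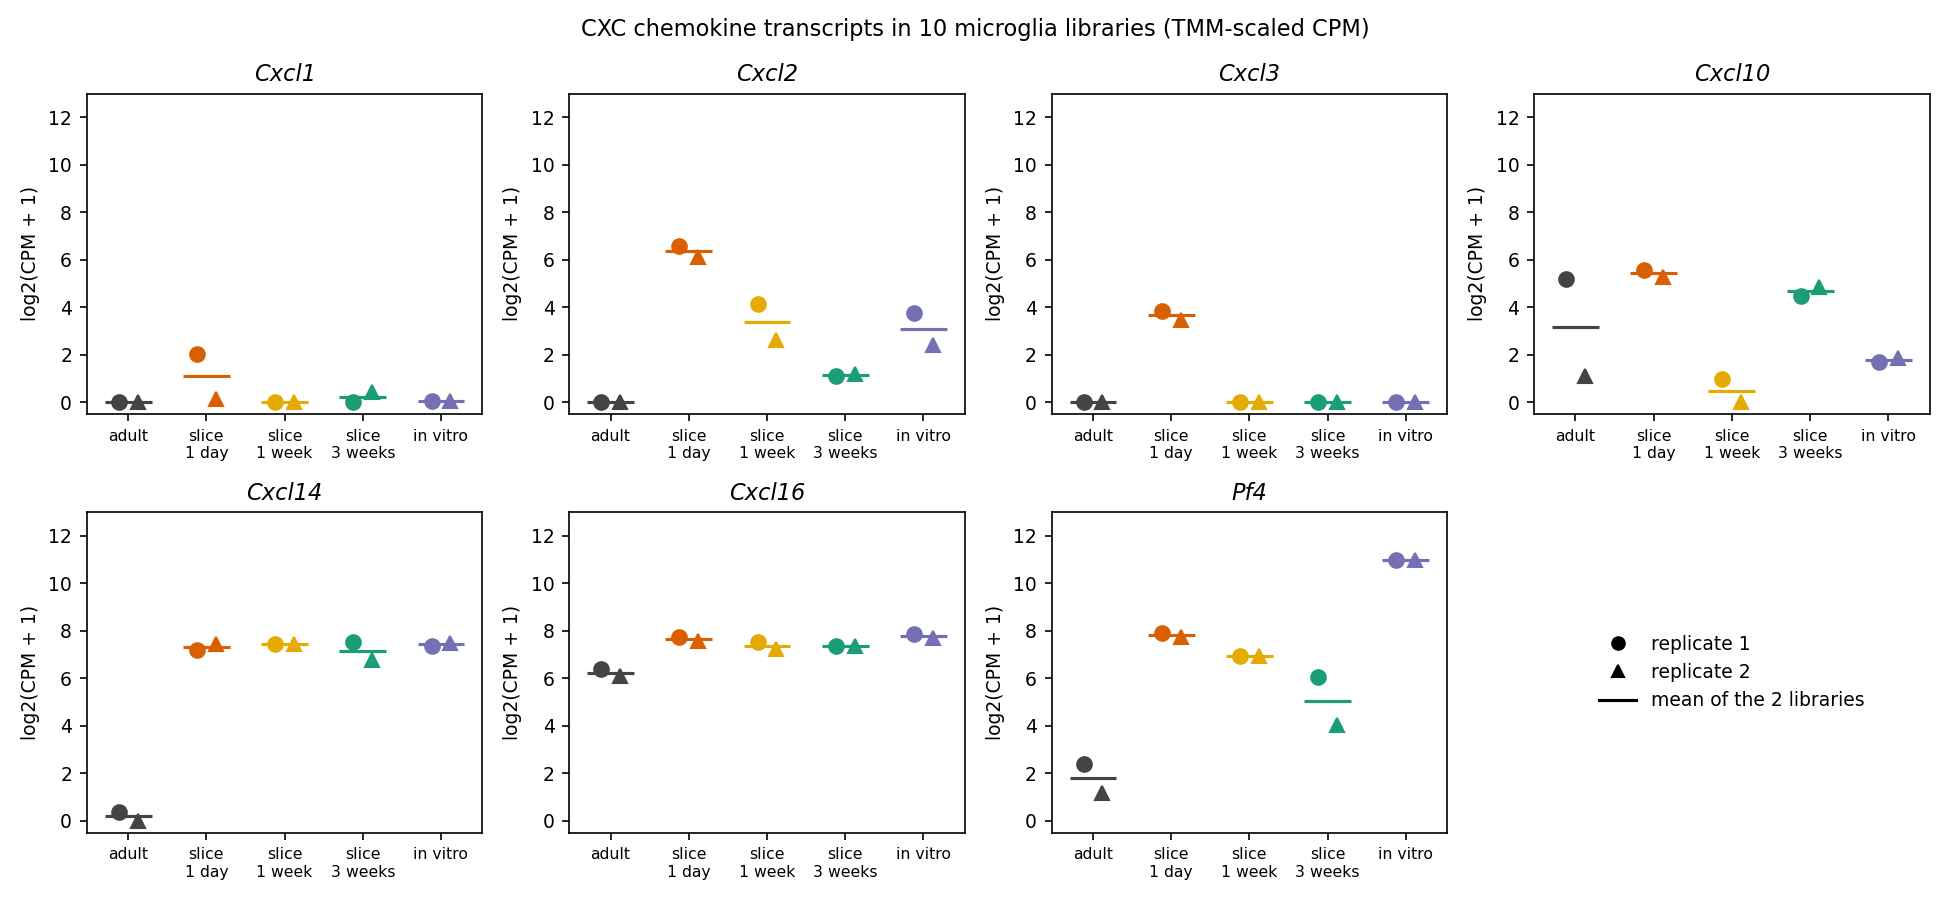
Level of each CXC member as log2(CPM + 1) in the 10 libraries, by group, with circles for replicate 1, triangles for replicate 2 and lines for the mean of the plotted values. *Cxcl14* and *Cxcl16* lie above adult in all 8 cultured libraries, *Cxcl2* and *Cxcl3* peak at slice 1 day, and *Pf4* is highest *in vitro*, at 2043 and 1992 CPM.

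Of the neutrophil-attracting ligands, *Cxcl2* and *Cxcl3* had 0 UMIs in adult microglia and were highest at slice 1 day. *Cxcl2*, which encodes the ligand also known as MIP-2, was at 95.4 and 68.5 CPM at slice 1 day and had 0 UMIs in both adult libraries. It was at 16.8 and 5.12 CPM at slice 1 week, 1.16 and 1.26 CPM at slice 3 weeks, and 12.6 and 4.27 CPM *in vitro*. The slice 1 day libraries lay above every other library, the adult libraries lay below every other, and slice 1 week and *in vitro* overlapped. Against the floor that 3 counts over both adult libraries allow (0.140 CPM), *Cxcl2* was at least 543-fold higher at slice 1 day, at least 96.7-fold at slice 1 week, at least 8.80-fold at slice 3 weeks and at least 58.1-fold *in vitro*. Monocyte markers (8 genes) summed to 475 and 715 CPM at slice 1 day and 1244 and 356 CPM at slice 1 week, against 239 and 157 at slice 3 weeks, 55.3 and 110 *in vitro* and 15.2 and 8.37 in adult. Much of these sums was *Fn1*, the fibronectin gene, at 329 and 355 CPM at slice 1 day, 340 in slice 1 week replicate 2 and 234 and 155 at slice 3 weeks. The 7 other markers summed to 146 and 359 CPM at slice 1 day, 15.4 in slice 1 week replicate 2, where 6 of the 8 genes were at 0, and 4.79 and 2.10 at slice 3 weeks. Of the 8 genes, 7 were higher than in adult at slice 1 day and 7 at slice 1 week (24.9% and 15.0% of all genes), the latter from slice 1 week replicate 1 alone for the genes at 0 in replicate 2, and at slice 1 day 15 and 177 cells had at least 3 of them. Of the defining genes, *Ly6c2* had UMIs at slice 1 day and in slice 1 week replicate 1 only, and *Chil3* in these libraries and, with 1 UMI, *in vitro* replicate 1. The part of these cells in the *Cxcl2* result was not tested.

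From slice 1 day, *Cxcl2* fell by 2.63 on the log2 scale at slice 1 week (SE 0.63, edgeR FDR = 0.0303), by 6.04 at slice 3 weeks (SE 0.57, edgeR FDR = 1.75e-04), and was lower *in vitro* by 3.28 (SE 0.44, edgeR FDR = 5.19e-04). *In vitro* microglia had more *Cxcl2* than slice 3 weeks microglia (log2 2.76, SE 0.56, edgeR FDR = 0.00415), with both *in vitro* libraries above both slice 3 weeks libraries. The size of the *in vitro* differences turned on single libraries. Without *in vitro* replicate 1 they were log2 −4.18 against slice 1 day and 1.87 against slice 3 weeks, and without *in vitro* replicate 2 they were −2.62 and 3.42, called in each case. The fall at slice 1 week rested on 19 UMIs in that group and lost its call without any 1 of the 4 libraries compared, with an edgeR FDR from 0.0707 to 0.163. It was log2 −4.01 without slice 1 week replicate 1 and −2.36 without replicate 2 of that group. The rise at slice 3 weeks over adult rested on 36 UMIs and lost its call without any 1 of the 4 libraries, with an edgeR FDR from 0.0575 to 0.133, and the rise at slice 1 week lost it without replicate 1 of that group (edgeR FDR = 0.206).

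*Cxcl2* transcripts came from few cells. A UMI of *Cxcl2* was present in 8.69% and 14.1% of slice 1 day cells, in 2.44% and 1.38% of *in vitro* cells and in 0.260% and 0.160% of slice 3 weeks cells. Of 3799 and 3527 adult cells, 0 had one, which allows shares of up to 0.0790% and 0.0851% of cells with a UMI and sets no limit on cells that express the gene. Since cells of different groups differ in depth, each cell was also thinned to 1500 UMIs, which left out 1150 shallower cells, 278 and 856 of them in the adult libraries. The thinned shares were 4.67% and 5.13% at slice 1 day, 0.621% and 0.447% *in vitro*, and 0.0867% and 0.0802% at slice 3 weeks, the latter pair from 1 and 3 cells. In slice 1 day replicate 1 the 6 cells with the most *Cxcl2* (1% of cells, rounded up) held 84.6% of its UMIs, with 195 UMIs in a single cell, and in replicate 2 the top 11 cells held 65.6%. The *in vitro* libraries were alike in this, with 90.8% and 93.4% of the UMIs in the top 1% of cells.

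*Cxcl3*, another CXCR2 ligand, was found at slice 1 day only. It was at 13.4 and 10.2 CPM there, from 51 and 99 UMIs, and at 0 UMIs in the other 8 libraries. The lower bound of its fold over the other groups was set by their depth, at least 79.2-fold over adult, 5.19-fold over slice 1 week, 108-fold over slice 3 weeks and 247-fold over *in vitro*. Because *Cxcl3* passed the filter on low counts only through the group in which it was high, its edgeR calls of slice 1 day against the other 4 groups are not read as tests. DESeq2 called none of these 4 differences, with adjusted p from 0.0568 to 0.539, and the edgeR call against slice 1 week was lost without any 1 of the 4 libraries compared and with cells thinned to 1500 UMIs. *Cxcl1*, which encodes the ligand also known as KC, had 12 and 1 UMIs at slice 1 day, 0 and 8 at slice 3 weeks, 1 and 1 *in vitro*, and 0 in adult and slice 1 week. Its 12 UMIs in slice 1 day replicate 1 lay in 3 cells, 10 of them in 1 cell. In the fit without the filter on low counts edgeR called *Cxcl1* as higher at slice 1 day than in adult (FDR = 0.00188) and lower *in vitro* than at slice 1 day (FDR = 0.00104), and both calls rest on these 3 cells. At these counts no further order of the groups was detectable.

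The neutrophil-marker cells of slice 1 day held a larger share of the *Cxcl3* UMIs than of those of any other member. In slice 1 day replicate 1 they held 48 of 51 *Cxcl3* UMIs (94.1%), and in replicate 2 they held 42 of 99 (42.4%). For *Cxcl2* their share was 14.8% and 12.6%, close to their share of cells (13.1% and 10.8%), at a level of 315 and 113 CPM (unscaled) beside 88.8 and 66.1 CPM in the other cells. They held between 0.108% and 1.80% of the UMIs of *Cxcl10*, *Cxcl14*, *Cxcl16* and *Pf4* and none of *Cxcl1*. Without these cells *Cxcl3* no longer passed the filter on low counts, and *Cxcl2* remained called at slice 1 day against adult (edgeR FDR = 7.23e-06) and lower at slice 3 weeks than at 1 day (log2 −5.90, edgeR FDR = 9.87e-05). The fall of *Cxcl2* from slice 1 day to slice 1 week was log2 −2.64 without them (edgeR FDR = 0.0254), the only member then called in that comparison.

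Whether *Cxcl3* in the remaining cells was their own cannot be read from counts alone. In slice 1 day replicate 2 every cell carried neutrophil-marker UMIs, at least 0.197% of its total, as in slice 1 week replicate 1 (at least 0.341%). Per 1000 neutrophil-marker UMIs, *Cxcl3* stood at 1.83 in the marker cells and 1.299 in the other cells of replicate 1, and at 0.240 and 1.45 in replicate 2. *Cxcl2* stood at 2.06 and 134 in replicate 1 and at 0.480 and 14.8 in replicate 2, far above the marker cells in the other cells of each library. After thinning, 0.223% and 0.774% of the other cells had a *Cxcl3* UMI (1 and 7 cells), beside 10.8% and 10.9% of the marker cells.

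**Figure D2:**
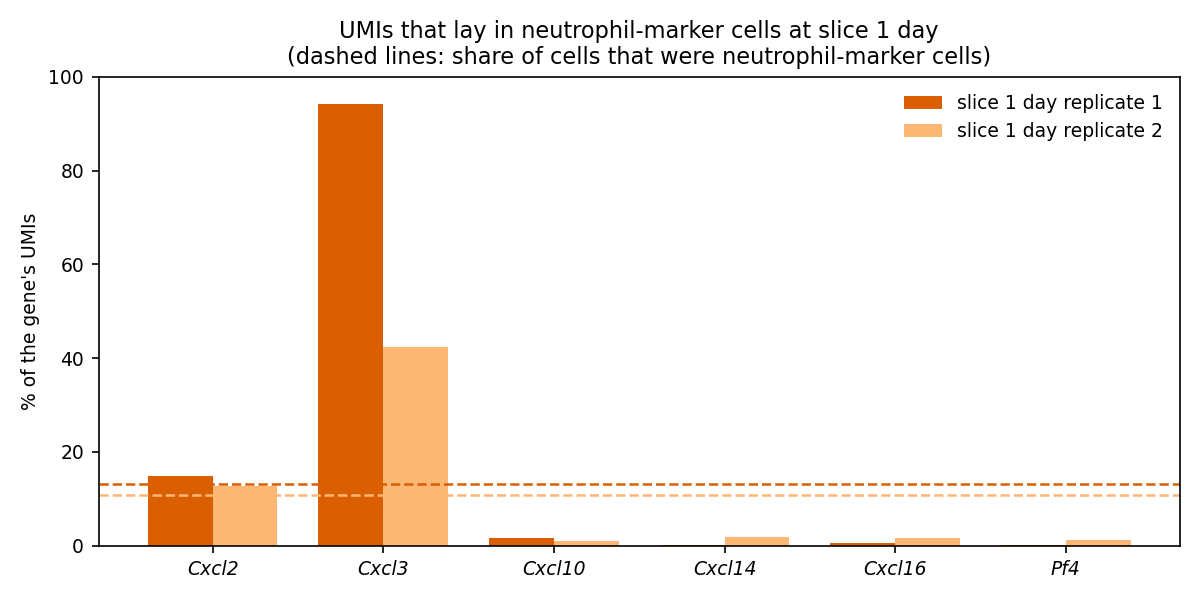
Share of the UMIs of 6 members in slice 1 day that lay in neutrophil-marker cells, in percent, for replicate 1 (dark bars) and replicate 2 (light bars), with dashed lines at these cells' share of all cells (13.1% and 10.8%). *Cxcl3* stands above the lines in both libraries, at 94.1% and 42.4%, *Cxcl2* is near them, and *Cxcl10*, *Cxcl14*, *Cxcl16* and *Pf4* lie below. *Cxcl1*, with 13 UMIs at slice 1 day and 0 of them in these cells, is not plotted.

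*Cxcl10*, the interferon-induced CXCR3 ligand, was set apart by the spread between the adult libraries. It was at 35.6 CPM in adult replicate 1 and 1.16 CPM in adult replicate 2, from 486 and 9 UMIs. Slice 1 day (46.9 and 37.8 CPM) and slice 3 weeks (21.6 and 27.7 CPM) lay in or above the adult range, *in vitro* (2.25 and 2.64 CPM) within it, and slice 1 week had 1 UMI in its 2 libraries together. Against adult, neither slice 1 day (log2 1.13, SE 0.79, edgeR FDR = 0.247) nor slice 3 weeks (log2 0.37, SE 0.78, edgeR FDR = 0.742) passed the threshold. Without the filter on low counts edgeR called slice 1 day as higher (log2 1.16, SE 0.22, FDR = 1.00e-06). The SE of that fit was smaller although the adult libraries stood at 35.6 and 1.16 CPM, so its FDRs for *Cxcl10* are not read as tests. *In vitro* microglia had less *Cxcl10* than slice 1 day microglia (log2 −4.10, SE 0.89, edgeR FDR = 0.00536) and slice 3 weeks microglia (log2 −3.34, SE 0.87, edgeR FDR = 0.0123), with no overlap of the libraries. The latter call was lost without either *in vitro* library (edgeR FDR = 0.0790 and 0.0727). The single UMI of slice 1 week was not called as lower than adult (edgeR FDR = 0.194) or slice 1 day (edgeR FDR = 0.131), whereas DESeq2 called both (adjusted p = 0.0453 and 0.0168). edgeR called both without the filter on low counts (FDR = 2.62e-10 and 6.45e-19) and without adult replicate 2 (FDR = 5.08e-04 and 0.00182), and called slice 1 week lower than slice 1 day without adult replicate 1 (FDR = 0.00208) and in a fit of these groups alone (FDR = 0.00489).

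*In vitro* against adult *Cxcl10* was called as lower (log2 −2.97, SE 0.86, edgeR FDR = 0.0136), although both *in vitro* libraries lay above adult replicate 2. Without adult replicate 1 the difference had the opposite sign (log2 1.17, edgeR FDR = 0.0553), and the call was lost with the study label as covariate (edgeR FDR = 0.158), with DESeq2 (adjusted p = 0.0551) and without either *in vitro* library (edgeR FDR = 0.0795 and 0.0706). Adult replicate 1 and slice 3 weeks replicate 1 shared a study label that the other 8 libraries did not carry. Without adult replicate 1, slice 1 day and slice 3 weeks were called as higher than adult (log2 5.21 and 4.46, edgeR FDR = 3.73e-05 and 1.73e-04). In adult replicate 1 a *Cxcl10* UMI was found in 79 of 3799 cells (2.08%), and in adult replicate 2 in 4 of 3527 (0.113%).

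The *Cxcl10* transcripts lay in a small number of cells with many interferon-stimulated transcripts. Cells with a *Cxcl10* UMI made up 4.05% and 6.31% of slice 1 day cells, 3.38% and 1.15% of slice 3 weeks cells and 0.455% and 0.522% of *in vitro* cells. In slice 3 weeks replicate 2, 1 cell held 323 of the 595 UMIs, and in slice 1 day replicate 1, 1 cell held 144 of 179. The 5% of cells with the highest share of 15 interferon-stimulated genes (among them *Ifit1*, *Isg15* and *Irf7*) held 88.9% and 77.8% of the *Cxcl10* UMIs in adult, 82.7% and 75.7% at slice 1 day, 87.1% and 90.4% *in vitro*, and 32.9% and 88.9% at slice 3 weeks. In adult replicate 1 these genes summed to 3081 CPM in cells with a *Cxcl10* UMI and to 174 CPM in cells without, and the order was the same in the other 7 libraries with at least 4 *Cxcl10* cells. *Cxcl10* is itself a gene of this response but was not on the list.

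Summed over all cells, the interferon-stimulated genes were in the order of *Cxcl10* among the slice groups and between the adult libraries, but not *in vitro*. They stood at 222 and 105 CPM in adult replicates 1 and 2 and at 340 and 382 CPM at slice 1 day, 106 and 94.7 at slice 1 week and 149 and 144 at slice 3 weeks. *In vitro*, where *Cxcl10* was low, they stood at 453 and 423 CPM. Of the 15 genes, 9 were higher and 0 lower *in vitro* than at slice 3 weeks (13.3% and 19.9% of all genes, median log2 1.58, beside −0.10 over all genes), in the comparison in which *Cxcl10* was lower. At slice 1 day against adult 8 were higher and 1 lower (24.9% and 25.3% of all genes, median log2 1.07), with *Isg15*, a ubiquitin-like modifier, at 73.7 and 101 CPM against 37.3 and 14.6 CPM (log2 1.73, SE 0.35, edgeR FDR = 0.00179).

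**Figure D3:**
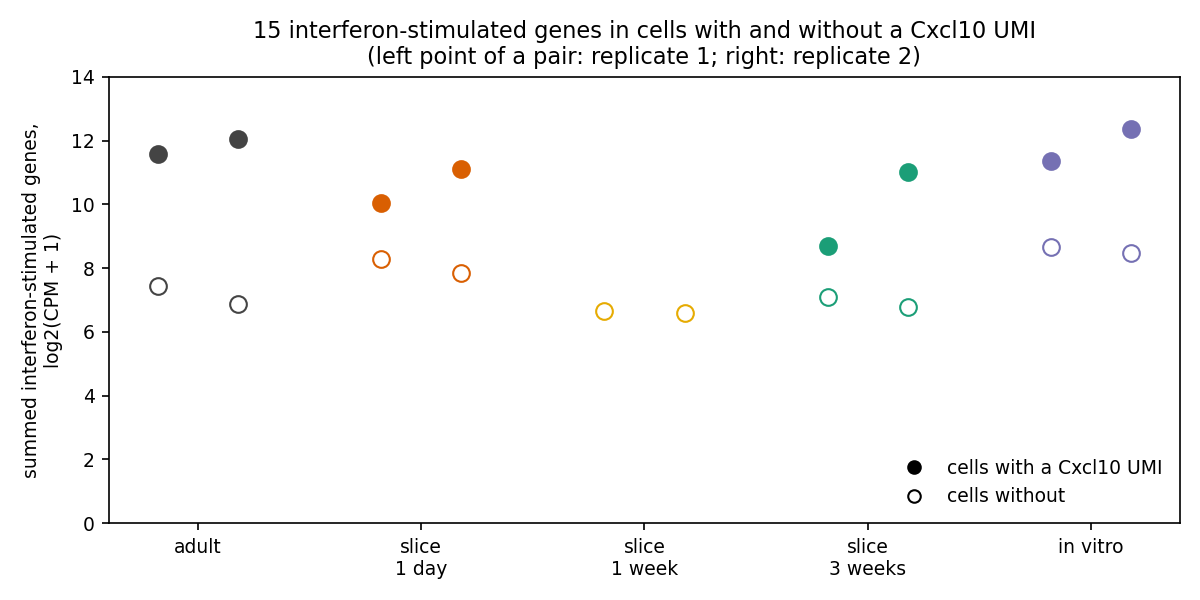
Summed level of 15 interferon-stimulated genes, as log2(CPM + 1), in cells with a *Cxcl10* UMI (filled) and without (open) for each library, left replicate 1 and right replicate 2. The filled points lie above the open ones in all 8 libraries with at least 4 *Cxcl10* cells, and slice 1 week has open points alone.

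*Cxcl14* was near absent from adult microglia and present in every culture, at levels that overlapped between the cultured groups. It was at 0.293 and 0 CPM in adult, from 4 and 0 UMIs. It was at 145 and 171 CPM at slice 1 day, 172 and 171 at slice 1 week, 181 and 110 at slice 3 weeks, and 166 and 180 *in vitro*. The cultured groups all overlapped and all lay above adult. Against adult the log2 fold change was 9.67 at slice 1 day (SE 0.46, edgeR FDR = 4.14e-07), 9.79 at slice 1 week (SE 0.47), 9.55 at slice 3 weeks (SE 0.46) and 9.80 *in vitro* (SE 0.46), with edgeR FDR from 1.13e-07 to 7.16e-07. These folds rest on the 4 UMIs of adult replicate 1. Without that library adult was at 0, and against the floor of 3 counts in adult replicate 2 (0.386 CPM) *Cxcl14* was at least 425-fold higher at slice 1 day, 445-fold at slice 1 week, 333-fold at slice 3 weeks and 449-fold *in vitro*. Without adult replicate 2 the log2 folds were 9.04, 9.14, 8.91 and 9.16, called in each case.

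Among the 6 comparisons between cultured groups none was called for *Cxcl14*, with log2 differences from −0.24 to 0.25 and SEs from 0.25 to 0.27. *In vitro* was called as higher than slice 3 weeks without slice 3 weeks replicate 1 (log2 0.74, edgeR FDR = 0.0329) and with the study label as covariate (log2 0.69, edgeR FDR = 0.0305). The 2 slice 3 weeks libraries, at 181 and 110 CPM, spanned the other cultures. A *Cxcl14* UMI was present in 26.3% and 48.9% of slice 1 day cells, 43.2% and 39.3% of slice 1 week cells, 46.6% and 26.9% of slice 3 weeks cells, and 63.1% and 63.2% of *in vitro* cells. In adult it was present in 2 of 3799 and 0 of 3527 cells. Thinned to 1500 UMIs per cell, the shares ranged from 10.7% to 18.4% in the cultured libraries, with *in vitro* at 17.1% and 17.4%, inside the range of the slices.

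*Cxcl14* was also counted in neutrophil-marker cells, as the cells of another type at hand. After thinning a *Cxcl14* UMI was found in 1.54% and 8.18% of these cells at slice 1 day, beside 12.03% and 19.4% of the other cells. Their median depth before thinning was 2224 and 4925 UMIs, against 6986 and 8868 in the other cells. In slice 1 week replicate 1, however, the 24 neutrophil-marker cells held 19 of 174 *Cxcl14* UMIs, at 129 CPM (unscaled) beside 166 CPM in the other cells, so these cells gave no clear background for *Cxcl14* there. *Cxcl14* was also spread over many cells, with 9.97% to 18.4% of its UMIs in the top 1% of cells of each cultured library, in contrast to *Cxcl2* and *Cxcl10*.

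*Cxcl16*, the membrane-bound CXCR6 ligand, was the only member found in over 10% of cells in every library. It was at 82.0 and 66.6 CPM in adult, and no cultured library was below 148 CPM. The levels were 211 and 189 CPM at slice 1 day, 184 and 148 at slice 1 week, 161 and 163 at slice 3 weeks, and 233 and 208 *in vitro*. Against adult *Cxcl16* was up-regulated by log2 1.42 at slice 1 day (SE 0.16, edgeR FDR = 5.07e-05), 1.18 at slice 1 week (SE 0.17, edgeR FDR = 6.34e-04), 1.12 at slice 3 weeks (SE 0.16, edgeR FDR = 3.96e-04) and 1.57 *in vitro* (SE 0.16, edgeR FDR = 1.87e-05).

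Among cultures the *Cxcl16* levels lay within log2 0.44 of each other. The largest difference, *in vitro* above slice 3 weeks, had an edgeR FDR of 0.0460 but a fold change below 1.5 (log2 0.44, SE 0.16), and passed both thresholds only in cells thinned to 1500 UMIs (log2 0.74, edgeR FDR = 0.00461). Against slice 1 week *in vitro* was called only without the filter on low counts (log2 0.62, edgeR FDR = 0.0154). A *Cxcl16* UMI was present in 22.2% and 12.3% of adult cells, 42.6% to 56.9% of slice cells, and 84.7% and 83.9% of *in vitro* cells. Thinned, these shares were 11.0% and 10.2% in adult, 17.9% to 22.4% in the slices and 27.3% and 23.2% *in vitro*. In thinned neutrophil-marker cells of slice 1 day they were 1.54% and 6.36%.

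**Figure D4:**
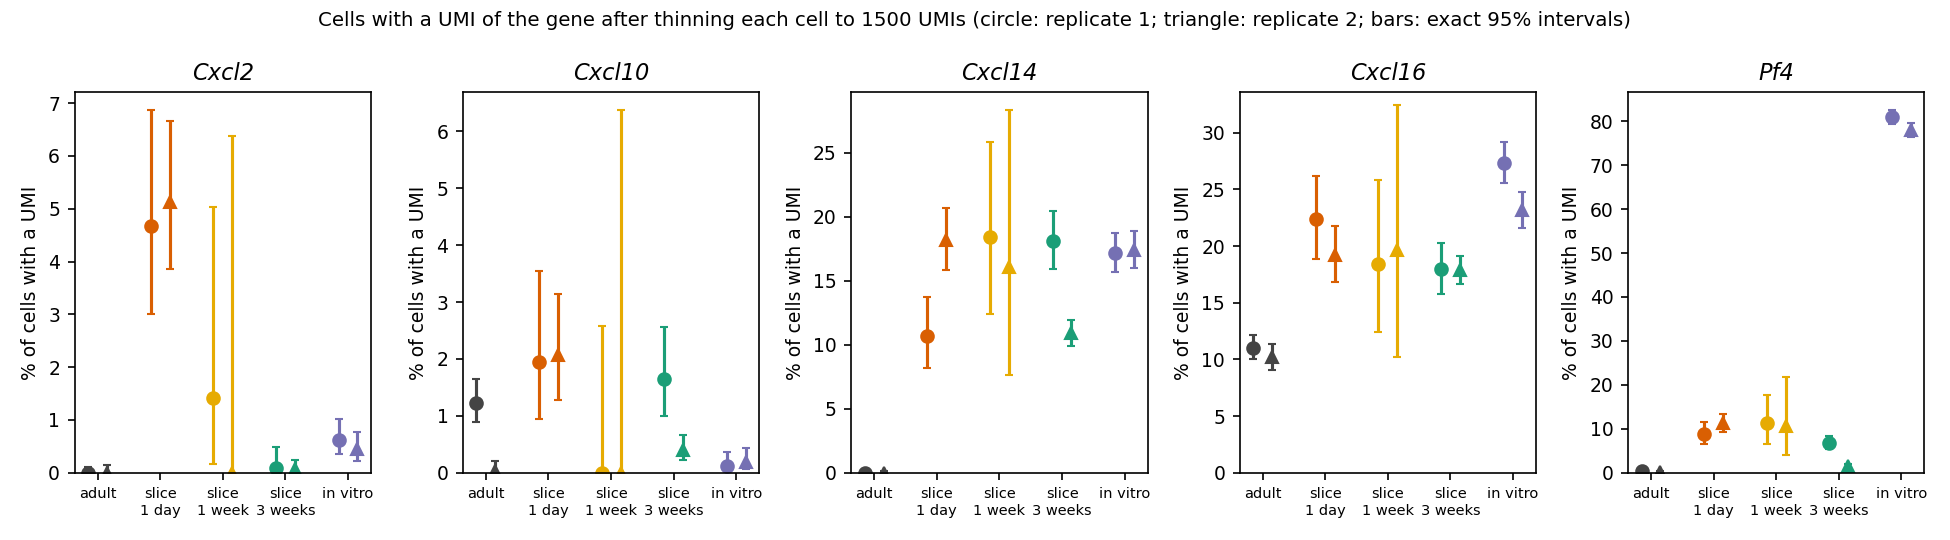
Percent of cells with a UMI of 5 members after each cell was thinned to 1500 UMIs, by library (circles replicate 1, triangles replicate 2), with exact 95% intervals that cover counting error only. *Cxcl2* and *Cxcl10* stay at or below 5.13% in all libraries, *Cxcl14* and *Cxcl16* are spread over cells in every culture, and *Pf4* reaches 81.0% and 78.0% *in vitro*.

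*Pf4* (CXCL4) had the widest range of the 7 genes in CPM. It was at 4.32 and 1.29 CPM in adult and at 2043 and 1992 CPM *in vitro*. The slices lay between, with 242 and 210 CPM at 1 day, then 121 and 123 CPM at 1 week, then 65.1 and 15.5 CPM at 3 weeks. None of the 5 groups overlapped, in the order *in vitro*, slice 1 day, slice 1 week, slice 3 weeks, adult. Against adult *Pf4* was up-regulated by log2 6.23 at slice 1 day (SE 0.68, edgeR FDR = 4.09e-05), 5.34 at slice 1 week (SE 0.68, edgeR FDR = 3.15e-04), 3.72 at slice 3 weeks (SE 0.63, edgeR FDR = 0.00111) and 9.39 *in vitro* (SE 0.76, edgeR FDR = 3.84e-06). These 4 calls held without any 1 library, but the log2 folds of *Pf4* were 7.49, 6.59, 4.99 and 10.7 without adult replicate 1. Without adult replicate 2 they were 5.71 at slice 1 day, 4.80 at slice 1 week and 8.86 *in vitro*, and without slice 3 weeks replicate 1 the fold of that group was log2 2.41.

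*In vitro* microglia had more *Pf4* than each slice group, by log2 3.16 over 1 day (SE 0.56, edgeR FDR = 0.00172), 4.05 over 1 week (SE 0.61, edgeR FDR = 0.00153) and 5.67 over 3 weeks (SE 0.63, edgeR FDR = 9.35e-05). Slice 3 weeks was lower than slice 1 day (log2 −2.51, SE 0.55, edgeR FDR = 0.00757). Without slice 3 weeks replicate 1 the last 2 differences were log2 7.11 and −3.87, and without replicate 2 of that group 5.02 and −1.79, called in each case. The neighbours slice 1 week and slice 1 day (log2 −0.90, SE 0.56, edgeR FDR = 0.356) and slice 3 weeks and slice 1 week (log2 −1.62, SE 0.57, edgeR FDR = 0.134) were not called. The former was called with the study label as covariate (edgeR FDR = 0.00809) and in a fit of these groups alone (edgeR FDR = 0.0195), and the latter without slice 3 weeks replicate 1 (log2 −2.92, edgeR FDR = 0.00470) and with the study label as covariate (log2 −2.92, edgeR FDR = 1.92e-04). Without the filter on low counts both were called (edgeR FDR = 5.61e-05 and 4.73e-11). The SEs of that fit were 0.20 and 0.21, beside 0.56 and 0.57 in the main fit, so these FDRs are not read as tests.

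**Figure D5:**
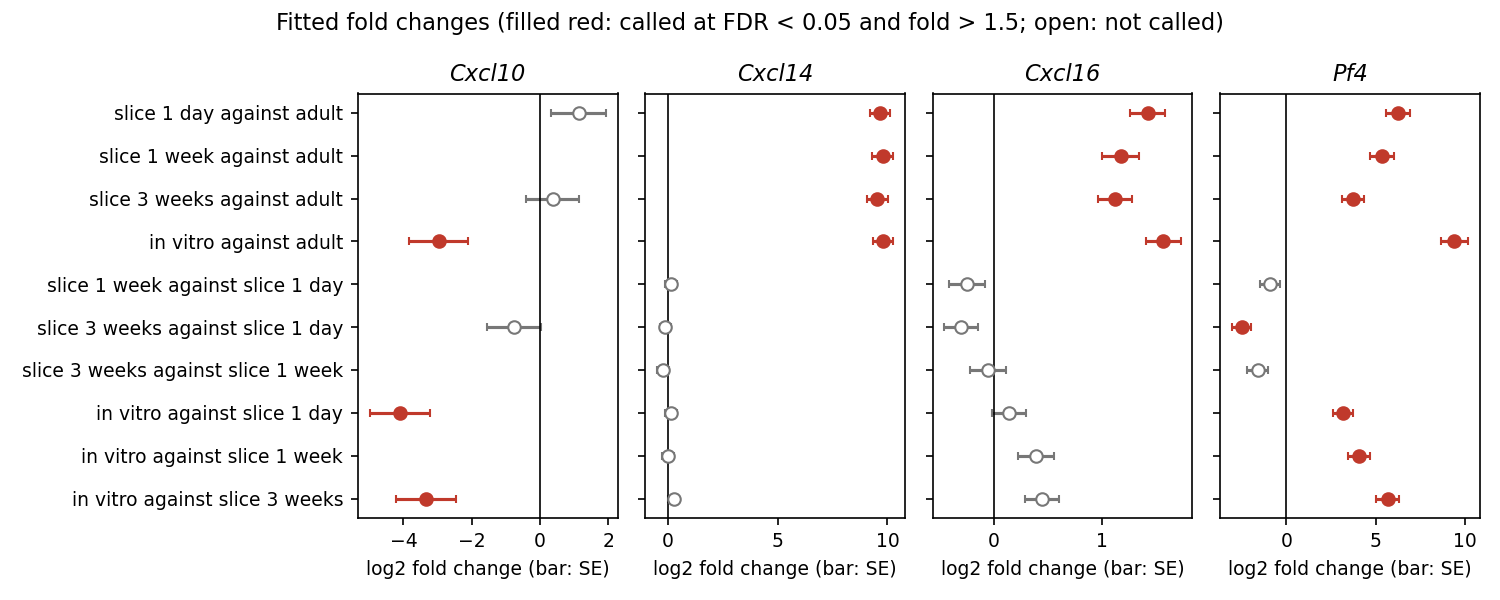
Fitted log2 fold changes of *Cxcl10*, *Cxcl14*, *Cxcl16* and *Pf4* in the 10 comparisons between groups, with SE bars, filled where called and open where not. *Cxcl10* is left out against slice 1 week, where it had 1 UMI. *Cxcl14* and *Cxcl16* are called against adult alone, from 9.55 to 9.80 and from 1.12 to 1.57, while *Pf4* is also called between cultures.

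A *Pf4* UMI was present in 98.8% and 99.0% of *in vitro* cells and in 81.0% and 78.0% after thinning. The thinned shares were 8.75% and 11.2% at slice 1 day, 11.3% and 10.7% at slice 1 week, 6.68% and 1.497% at slice 3 weeks and 0.312% and 0.225% in adult. In thinned neutrophil-marker cells of slice 1 day they were 1.54% and 7.27%. The *in vitro* libraries had 0 neutrophil-marker cells, so no background share was measured there. Summed counts alone do not tell fewer expressing cells from less RNA per cell. The most concentrated culture was slice 3 weeks replicate 2, where the top 1% of cells held 63.4% of the *Pf4* UMIs, against 5.60% and 5.98% *in vitro*.

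PF4 is also made by macrophages at the borders of the brain, so it was read beside 8 border macrophage markers (*Mrc1*, *Cd163*, *Lyve1*, *F13a1*, *Cbr2*, *Folr2*, *Ms4a7* and *Stab1*). In slice 1 day the 34 and 71 cells with at least 3 of these markers held 84.2% and 62.7% of the *Pf4* UMIs. In adult replicate 1, 7 such cells held 41 of 59 *Pf4* UMIs, while in adult replicate 2 the 2 such cells held 1 of 10 and the cells with 0 markers held 6. At slice 1 week the 26 and 8 such cells held 59.0% and 43.8%. At slice 3 weeks the 34 and 80 such cells held 16.5% and 17.7%, and most *Pf4* UMIs (72.4% and 68.2%) lay in cells with 1 or 2 markers. The summed markers stood at 156 and 120 CPM in adult, 258 and 231 at slice 1 day, 597 and 361 at slice 1 week, 236 and 203 at slice 3 weeks and 3537 and 3490 *in vitro*, where 2134 of 2417 and 2405 of 2682 cells had at least 3. Nearly all of the adult sum was *Stab1* (147 and 113 CPM). Without *Stab1* the markers summed to 9.23 and 7.08 CPM in adult and 145 and 122 at slice 1 day. Counts of cells with at least 3 markers also depend on depth, with a median of 3257 and 1858 UMIs in adult and 12858 and 13966 *in vitro*. Most of the *in vitro* sum was *Ms4a7* (2440 CPM in both libraries), *Stab1* (609 and 560) and *Mrc1* (383 and 341), while *Lyve1* stood at 0.707 and 0.309 CPM and *Cd163* at 0.803 and 1.23, below their slice 1 day levels of 4.46 and 6.08 and of 2.10 and 1.55. None of the 8 genes was at 0 UMIs *in vitro* or at slice 1 day, while *Lyve1* was at 0 in adult replicate 2, slice 1 week replicate 2 and both slice 3 weeks libraries, *Cbr2* in adult replicate 2, and *Cd163* in slice 1 week replicate 2 and slice 3 weeks replicate 1. Their part in the *Pf4* result was not tested.

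*Ms4a7*, a tetraspan membrane gene of macrophages, was more frequent in cells with *Pf4* than without at slice 3 weeks. It was found in 46.1% and 57.0% of the *Pf4* cells and in 10.6% and 6.89% of the others. *Mrc1* and *Stab1* were also more frequent with *Pf4* in both libraries. *Folr2* (16.6% against 16.5%) and *F13a1* (2.07% against 2.29%) were not clearly so in replicate 1. In replicate 2 they were at 12.7% against 9.20% and 9.15% against 4.03%. The *Pf4* cells were deeper, with a median of 6807 and 7313.5 UMIs against 5994 and 5225. *Cxcl14* was likewise found in 60.6% and 59.2% of these *Pf4* cells and in 43.8% and 25.6% of the others. Platelet markers (6 genes, among them *Ppbp* and *Gp9*) summed to 115 and 89.6 CPM in adult and 3.95 to 16.8 CPM in the cultured libraries. *Gp9*, a platelet glycoprotein gene, made up nearly all of the adult sum, at 114 and 88.1 CPM, while the level of *Ppbp*, given next, was above adult in the cultured groups with the most *Pf4*.

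Of 8 other CXC ligands looked up, 2 had enough counts to be tested, *Cxcl13* (a B cell chemoattractant) and *Ppbp* (CXCL7, whose gene lies next to *Pf4*). *Ppbp* was at 9.70 and 15.0 CPM at slice 1 day and at 6.17 and 7.55 *in vitro*, with at most 1 UMI in each of the other 6 libraries, and passed the filter on low counts through these groups, so its calls against adult are not read as tests. Like *Pf4* it was high in these 2 groups, but at slice 1 week, where *Pf4* was at 121 and 123 CPM, it had 0 UMIs. *Cxcl13* was at 30.0 and 30.8 CPM at slice 3 weeks, 5.71 and 0 CPM in adult, and had 1 UMI in the other 6 libraries together. It was higher at slice 3 weeks than in adult (log2 3.24, SE 0.81, edgeR FDR = 0.0131), where adult replicate 1 held all 78 adult UMIs, and was called as lower than adult at slice 1 day (edgeR FDR = 0.0495) and *in vitro* (edgeR FDR = 0.00381). It too passed the filter through the group in which it was high, so all of these differences from adult are a description. Those below adult rest on adult replicate 1 alone.

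Of 8 receptor genes, 4 were tested. Against adult 3 of them were higher and 0 lower at slice 1 day (24.9% and 25.3% of all genes) and at slice 1 week (15.0% and 13.6%), 1 was higher and 1 lower at slice 3 weeks (17.9% and 17.5%), and 1 was higher and 0 lower *in vitro* (22.4% and 28.5%). *Cxcr2* and *Cxcr6* were near 0 outside slice 1 day and slice 1 week and entered the fit through those libraries, so these counts are a description. *Cxcr2*, the receptor of CXCL1, CXCL2 and CXCL3 and itself 1 of the 10 neutrophil markers, was at 52.7 and 31.4 CPM at slice 1 day and 56.3 and 0 CPM at slice 1 week, against 0 to 0.366 CPM elsewhere. Without the neutrophil-marker cells, 19 of 201 and 67 of 305 *Cxcr2* UMIs remained at slice 1 day and 7 of 57 in slice 1 week replicate 1, and the same counts of receptors were called against adult in all 4 comparisons. *Cxcr4*, the CXCL12 receptor, had 0 UMIs in adult and stood at 9.12 and 11.4 CPM *in vitro*, 2.20 and 1.58 at slice 3 weeks and 5.24 and 2.06 at slice 1 day. At slice 1 week it had 5 and 3 UMIs. *Cxcr3*, the receptor of CXCL10, was low throughout, at 4.83 and 2.58 CPM in adult, 4.95 and 3.93 *in vitro* and 1.16 and 0.0932 at slice 3 weeks, and was lower at slice 3 weeks than in adult (log2 −3.09, SE 0.94, edgeR FDR = 0.0243). *Cxcr6*, the receptor of CXCL16, had 13 UMIs in slice 1 day replicate 2, 11 in slice 1 week replicate 1 and at most 1 in each of the other 8 libraries.

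Neither *Adam10* nor *Adam17*, which encode proteases that release CXCL16, was called as higher than adult in any cultured group. At slice 1 week and slice 3 weeks neither was called in either direction. *Adam10* was at 77.9 and 76.0 CPM in adult, 35.1 and 40.9 at slice 1 day, 72.0 and 129 at slice 3 weeks, and 49.1 and 43.6 *in vitro*. It was down-regulated against adult at slice 1 day (log2 −1.01, SE 0.24, edgeR FDR = 0.00490) and *in vitro* (log2 −0.73, SE 0.23, edgeR FDR = 0.0202), where *Cxcl16* was up-regulated. *Adam17* was at 48.6 and 43.0 CPM in adult and called in no comparison with adult, with log2 −0.52 (SE 0.20, edgeR FDR = 0.0481) at slice 1 day, a change of less than 1.5-fold.

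The NF-kB response list (15 genes) and the immediate early list (10 genes, 9 tested) were read beside *Cxcl2*. Against adult at slice 1 day 7 NF-kB response genes were higher and 3 lower (24.9% and 25.3% of all genes, median log2 0.58, beside −0.06 over all genes), and 5 immediate early genes were higher and 1 lower (median log2 2.88). Both counts were the same without the neutrophil-marker cells. Of the NF-kB response genes 4 were higher and 4 lower at slice 1 week (15.0% and 13.6% of all genes, median log2 −0.21, with genes at 0 set to a bound), 5 and 3 at slice 3 weeks (17.9% and 17.5%, median 0.42) and 5 and 5 *in vitro* (22.4% and 28.5%, median −0.24). *Ier3*, a stress-induced NF-kB target, was at 125 and 129 CPM at slice 1 day against 4.25 and 6.83 in adult, and remained at 81.0 and 96.3 at slice 3 weeks, where *Cxcl2* was at 1.16 and 1.26. *Nfkb1*, the p105/p50 subunit, was lower than adult at slice 1 day (log2 −1.79, SE 0.15, edgeR FDR = 8.39e-06). *Atf3*, an early stress factor, was at 168 and 149 CPM at slice 1 day, 113 and 139 at slice 3 weeks and 11.4 and 13.4 in adult. *In vitro* against slice 1 day, 9 NF-kB response genes and 7 immediate early genes were lower and 0 of either list higher (18.6% of all genes were lower and 13.3% higher).

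The genes nearest in pattern to each member were found by the root mean square (RMS) difference between profiles of log2(CPM + 1) over the 10 libraries, each centred on its own mean, among 8973 genes with at least 5 CPM on average. The profiles are of whole libraries, with the neutrophil-marker cells included, and do not show that genes shared cells. *Cxcl2* was nearest to *Il1b*, *Il1rn* and *Fpr2* (RMS 0.70, 0.81 and 0.86, where a flat profile would be 2.23 away). *Il1b*, which encodes interleukin-1 beta, averaged 64.0 CPM at slice 1 day, 14.4 at 1 week, 5.33 at 3 weeks, 15.8 *in vitro* and 1.49 in adult. *Cxcl3* was nearest to *Irg1*, *Tgfbi* and *Dusp1* (0.60, 0.64 and 0.65, flat 1.47), and *Cxcl14* to *Ifitm2*, *Igf1* and *Anxa2* (0.51, 0.54 and 0.61, flat 2.87). *Pf4* was nearest to *Cfp* (0.53, flat 3.08), which encodes the complement factor properdin and averaged 424 CPM *in vitro* and 0.467 in adult, then to *Cd36* and *Clec4d* (1.06 and 1.07). *Cxcl16* was nearest to the ATP synthase genes *Atp5l* and *Atp5h* and to *2310009B15Rik* (0.12, 0.13 and 0.14, flat 0.56). *Cxcl10* had no close match, with *Postn*, *Slc7a1* and *Igf2bp2* at 1.11, 1.16 and 1.19 (flat 2.04).

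Within cells of slice 1 day other than the neutrophil-marker cells, the 30 and 107 cells with *Cxcl2* had an *Il1b* UMI in 23.3% and 21.5% of cases, against 9.76% and 14.3% of cells without *Cxcl2*. *Il1b* summed to 109 and 170 CPM in the former and 40.0 and 25.9 CPM in the latter. *Tnf*, the tumour necrosis factor gene and chosen here with its values known, summed to 54.5 and 83.1 CPM against 24.0 and 31.3 CPM. *In vitro* the same order was seen for *Il1b* in the 59 and 37 cells with *Cxcl2*, at 159 and 51.7 CPM against 17.9 and 7.07 CPM. *Cxcl14* was at 130 and 125 CPM in the slice 1 day cells with *Cxcl2* and 161 and 196 CPM in those without, but a *Cxcl14* UMI was in 33.3% and 56.1% of the former and 29.8% and 51.9% of the latter. *In vitro* it was at 160 and 112 CPM with *Cxcl2* and 152 and 163 CPM without. These are sums over cells of single libraries and were not tested.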

How the data were processed

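Single-cell RNA was measured with 10x Genomics 3' libraries in 10 samples, 2 per group, grouped by their labels. The authors deposited raw UMI counts per gene symbol and cell barcode for each sample; the submitters' processing notes name Cell Ranger 1.3.0 and mm10, and the study's methods an aggregation step, but whether the tables precede it is not given in the sources used here. No column of another series was found (0).

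Barcodes with more than 5% mitochondrial UMIs, fewer than 400 genes or more than 30000 UMIs were removed (578 of 19637). No doublet caller was run, and outlier cells were not removed by t-SNE. A symbol missing from a table counted 0. Counts were summed per library, and 12157 genes passed edgeR's filter (minimum count 10). All 5 groups were fitted in one edgeR 4.0.16 (R 4.3.3) quasi-likelihood model with TMM factors and Benjamini-Hochberg adjustment over all genes (FDR), with a biological coefficient of variation of 18.3%; a call needed FDR below 0.05 and a fold change over 1.5. The fitting code was tested on simulated counts. With 2 libraries against 2, a two-sided permutation test cannot go below p = 0.333, so single values carry no permutation p. The labels do not say whether the replicates came from separate animals or cultures, so p-values measure the spread between these samples. The fit without the filter on low counts gave smaller SEs than the main fit for *Cxcl2*, *Cxcl10* and *Pf4*. Its FDRs and calls for these genes are therefore not read as tests. Comparisons with adult share the same adult libraries. Lower bounds of folds used a floor of 3 counts over the group at 0. Exact binomial 95% intervals and floors cover counting error only.

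The members and lists were chosen with earlier results of these data known. All 7 members are named, with up to 4 genes per list by average CPM and the 3 genes nearest in pattern to each member. For the border macrophage list all 8 genes are named, outside this rule. The planned rule of 3 markers for cells of other types marked every cell of slice 1 week replicate 1, because neutrophil-marker UMIs were present in all of them, and was replaced by the rule of 2% neutrophil-marker UMIs, chosen after seeing the data. Alternatives were library size alone, DESeq2 1.42.0, no filter, all barcodes, thinned cells, a replicate block, the study label as covariate, only the groups compared, each library left out, both slice 1 week libraries left out, and no neutrophil-marker cells. One gene of the interferon-stimulated list is not reported here by name.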

Additional observations from a re-analysis of the deposited data

Results flagged for a closer look

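The 7 CXC members were also counted in the barcodes that the filter on cells removed. Their summed level there was 577.5 CPM at slice 1 day (27 barcodes), 305.7 CPM at slice 1 week (18 barcodes), 308.7 CPM at slice 3 weeks (157 barcodes) and 2018.8 CPM *in vitro* (283 barcodes), each above the 66.3 CPM in the 93 removed adult barcodes. At slice 1 week this rests on 13 UMIs and in adult on 6.

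The difference in *Cxcl10* between slice 3 weeks and adult had opposite signs in the libraries of the 2 study labels. On the log2(CPM + 1) scale it was −0.695 between the replicate 1 libraries, which share a study label, and 3.73 between the replicate 2 libraries, which share the other. With 1 library of each group per study label this difference was not tested. For *Cxcl14*, *Cxcl16*, *Pf4* and *Cxcl2* slice 3 weeks was higher than adult in both labels.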

How the results depend on the processing

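The number of members called kept to within 1.5 times under every alternative in 7 of the 10 comparisons. Slice 1 week against slice 1 day (2 members) gave 4 without the filter on low counts, 4 in a fit of these groups alone, 1 with cells thinned, 1 without neutrophil-marker cells, and 0 to 3 with 1 library left out (0 without any 1 of the 4 compared). Slice 3 weeks against slice 1 week (0 members) gave 1 with DESeq2, 3 without the filter, 1 with the replicate block, 1 with the study label, 2 in a fit of these groups alone, and 0 to 1 with 1 library left out. *In vitro* against slice 1 week (1 member) gave 2 without the filter. The cause was not tested.

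Thinning cells to 1500 UMIs lowered the mean share of cells with a UMI. At slice 1 day it gave 4.90% for *Cxcl2*, 1.72% for *Cxcl3*, 2.01% for *Cxcl10*, 14.4% for *Cxcl14*, 20.8% for *Cxcl16* and 10.0% for *Pf4*. At slice 1 week it gave 0.709% for *Cxcl2*, 17.3% for *Cxcl14*, 19.0% for *Cxcl16* and 11.0% for *Pf4*, and at slice 3 weeks 0.0835% for *Cxcl2*, 14.5% for *Cxcl14* and 17.9% for *Cxcl16*. *In vitro* it gave 0.0207% for *Cxcl1*, 0.534% for *Cxcl2*, 0.155% for *Cxcl10*, 17.3% for *Cxcl14*, 25.3% for *Cxcl16* and 79.5% for *Pf4*. With all barcodes the *in vitro* shares were 63.6% for *Cxcl14*, 83.6% for *Cxcl16* and 98.8% for *Pf4*. The share of member UMIs in cells with at least 3 markers of another cell type (2.85% in adult, 5.20% at slice 3 weeks, 91.8% *in vitro*) was 7.60%, 25.03% and 99.2% with at least 2 markers, and 0.899% at slice 3 weeks and 38.0% *in vitro* with at least 4. It was 78.9% at slice 1 day and 62.3% at slice 1 week, and 92.7% and 77.7% with at least 2 markers and 63.9% and 52.3% with at least 4. The rule of at least 3 markers took in 1009 of 1014 cells of slice 1 day replicate 2 and 148 of 148 of slice 1 week replicate 1. *In vitro* it took in 2134 of 2417 and 2405 of 2682 cells. These shares therefore do not place the UMIs in cells of another type.

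Signs changed for differences near 0 and for *Cxcl10* against adult. On the log2 scale, *Cxcl16* at slice 3 weeks against slice 1 week was 0.072 without the filter, 0.0013 with all barcodes and −0.10 to 0.15 with 1 library left out. With library size alone, *in vitro* against slice 1 day was −0.057 for *Cxcl14* and −0.040 for *Cxcl16*, and *Cxcl14* *in vitro* against slice 1 week was −0.089. *Cxcl2* *in vitro* against slice 1 week was 0.65 with cells thinned and −1.47 to 0.80 with 1 library left out. With 1 library left out, *Cxcl10* ranged from −0.52 to 4.46 at slice 3 weeks against adult and from −3.86 to 1.17 *in vitro* against adult. *Cxcl14* ranged from −0.011 to 0.24 at slice 1 week against slice 1 day, from −0.60 to 0.14 at slice 3 weeks against slice 1 week, from −0.54 to 0.21 at slice 3 weeks against slice 1 day, and from −0.0060 to 0.74 *in vitro* against slice 3 weeks.

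Same-numbered libraries did not deviate together (r from −0.135 to 0.123 over genes), and the replicate block moved no other count of members. This cannot exclude a pairing of the samples. Adult and slice 3 weeks libraries of the same number shared a study label, yet their r was 0.0743. The fits without cells of at least 3 markers of another cell type were not run, since 0 cells were left in slice 1 week replicate 1. The 61 and 148 cells of slice 1 week limit every value of that group, whose floor was 2.14 CPM against 0.0449 CPM *in vitro*.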
